A study of Mus musculus with 14 samples.

Results

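Chemokine transcripts and the receptors of Cxcl12 were measured in the epicardium and subepicardium of E16.5 mouse hearts, the outer cell layer of the heart and the tissue just beneath it, taken separately from the ventral and the dorsal face. The genes described are 10 of the 15894 listed: the ligands Cxcl12, Ccl9, Ccl6, Ccl2, Ccl7, Cxcl14, Cxcl16 and Cx3cl1, and the receptors Cxcr4 and Ackr3. They were chosen by name with the regional values of these data already known, so their ventral and dorsal values are given as a description, with no p-value. The counts of members past a threshold between the faces stand beside the same share of all genes, and nothing is read from them. All 10 were found among the listed genes. On the sex of the embryos, which the choice did not use, tests are given.

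Each library was made from polyA RNA of 2 hearts pooled together. Female hearts gave 3 ventral and 3 dorsal libraries (pools 1 to 3). Male hearts gave 4 ventral libraries (pools 4 to 7) and 3 dorsal ones (pools 4 to 6). For 1 more male library, of pool 7, the labels name both faces, so it stayed out of every comparison of region. Every embryo carried the Tbx18Cre genotype, a Cre recombinase driven in epicardial cells, and none was treated, so the groups share that allele and differ in face and sex. The library numbers of the sexes overlap (both sets hold a library 6, 7 and 8), and a difference between the sexes cannot be told apart from one between their preparations.

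Chemokines are small secreted or membrane-held proteins that steer cells along their gradients through receptors coupled to inhibitory G proteins. Cxcl12 binds Cxcr4, which signals cell migration and takes part in the formation of coronary arteries, and Ackr3, an atypical receptor that recruits arrestin and takes Cxcl12 up into the cell. Ccl2 and Ccl7 draw monocytes through Ccr2, Ccl6 and Ccl9 are rodent ligands of Ccr1 made mainly by myeloid cells, and Cx3cl1 and Cxcl16 can stay anchored in the membrane of the cell that makes them.

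Depth ran from 13.9 to 25.2 M (mega) reads on listed genes per library, and 3 reads correspond to 0.135 to 0.253 normalized CPM (reads scaled to the size of the library), the unit of every level below. Beside the epicardium the libraries held other tissue. The summed level of 10 epicardium markers was 1749 to 2788 in female ventral libraries, 339.8 to 640.2 in female dorsal, 2055 to 5999 in male ventral and 1584 to 4291 in male dorsal, and that of 10 ventricular cardiomyocyte markers was 21679 to 31649 in female ventral libraries, 32297 to 45842 in female dorsal, 17202 to 33661 in male ventral and 35926 to 45769.6 in male dorsal. In females, 9 of 10 epicardium markers were higher in ventral libraries by limma. In such bulk RNA, fewer cells of a type and less RNA per cell cannot be told apart.

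Over all libraries together Ackr3, Cxcl12 and Cxcl16 stood highest of the 10 genes. Per kilobase of exon, which allows levels to be compared between genes, the mean over the 13 libraries of settled region was 9.33 ± 5.01 for Ackr3, 9.03 ± 1.87 for Cxcl12 and 8.37 ± 7.19 for Cxcl16 (SD, n = 13). Ccl2, Ccl7, Ccl6, Ccl9 and Cx3cl1 followed at 5.57, 4.35, 2.36, 1.77 and 1.22 CPM per kilobase. Cxcr4 at 0.640 and Cxcl14 at 0.480 were lowest. No gap between neighbours in this order was larger than the SD of the neighbour that varied more. The order depended on the group: Cxcl16 was first in male ventral libraries, with a mean of 13.3, and below Ccl2 in female dorsal ones (2.58 against 2.82), where Cxcl12 was first at 9.11. With the longest transcript as the length, Cxcl12 and Ackr3 changed places at 13.1 and 10.2, and the other 8 kept their ranks.

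**Figure D1:**
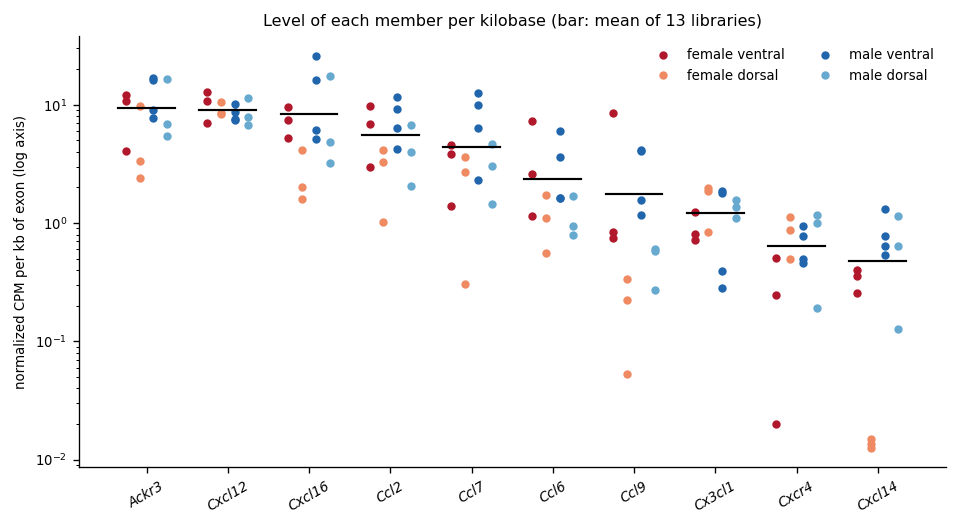
Level of each gene in normalized CPM per kilobase of exon, on a log axis, with 1 point per library of settled region, coloured by group, and a bar at the mean of 13 libraries. Ackr3, Cxcl12 and Cxcl16 lie at the top, and the points lowest on the axis are the 3 female dorsal libraries of Cxcl14 and 1 female ventral library of Cxcr4, all at 0 reads.

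Cxcl12 (chromosome 6, 117168535 to 117181367, plus strand, GRCm38) had the smallest spread for its level of the 10 genes, with an SD of 0.207 of its mean against up to 1.37 for Ccl9. The female ventral libraries of pools 1, 2 and 3 held 87.2, 104 and 57.9 CPM, and the dorsal libraries of the same pools held 67.9, 69 and 86.6. Male ventral libraries of pools 4 to 7 held 71.3, 82.5, 60.4 and 61.5, and the dorsal ones of pools 4 to 6 held 93, 63.9 and 54.9. The highest library was 1.89 times the lowest, and the ventral and dorsal groups overlapped in both sexes. The log2 change of ventral over dorsal, on log2(CPM + 1), was 0.12 (SE 0.21) in females and -0.01 (SE 0.20) in males. The ratio of group means was 1.11 in females and 0.976 in males, and its direction turned in females without the ventral library of pool 2 (0.974) and in males without the ventral library of pool 6 (1.02), the ventral library of pool 7 (1.01) or the dorsal library of pool 4 (1.16). Among the 8 ligands of the set, Cxcl12 made up 11.9% to 57.5% of the summed level per kilobase in the 13 libraries. The lowest share was in the male ventral library of pool 7, where Cxcl16 was highest, and the highest in the female dorsal library of pool 2.

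Its atypical receptor Ackr3 (chromosome 1, 90203980 to 90216751, plus strand) had a wider spread. Its level in females was 13.6, 35.9 and 40.7 CPM in ventral pools 1, 2 and 3 and 32.9, 7.98 and 11.2 in dorsal pools 1, 2 and 3. The male level was 25.9, 30.4, 56.1 and 54.6 in ventral pools 4 to 7 and 23, 18.4 and 55.5 in dorsal pools 4 to 6. Pool 1 of the females went the other way from the other 5 pairs, with the dorsal library above the ventral one. The log2 change of ventral over dorsal was 0.87 (SE 0.51) in females and 0.45 (SE 0.39) in males, and the groups overlapped in both. The ratio of means was 1.73 in females, and 3.14 without the dorsal library of pool 1. In males it was 1.29, and 2.02 without the dorsal library of pool 6.

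Cxcr4 (chromosome 1, 128588199 to 128592293, minus strand), the signalling receptor, was scarce. Ventral female pools 1, 2 and 3 gave 0.443, 0.0361 and 0.909 CPM and dorsal ones 0.901, 2.04 and 1.57. Ventral male pools 4 to 7 gave 1.71, 0.902, 1.42 and 0.83 and dorsal pools 4 to 6 gave 2.10, 0.349 and 1.83. Those values rest on 8, 0 and 15 reads in female ventral, 19, 37 and 31 in female dorsal, 33, 22, 35 and 19 in male ventral and 31, 8 and 38 in male dorsal libraries. A count of 0, as in the female ventral library of pool 2, allows up to 3 reads, or 0.253 CPM there, by counting error alone. In all 3 female pools the dorsal library held more than the ventral one, and the mean was 3.25 times as high in dorsal libraries, or 6.28 times without the ventral library of pool 3. The 2 groups met within 0.01 CPM, at pool 3 ventral and pool 1 dorsal. In males the log2 change was -0.06 (SE 0.38).

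Per kilobase, Ackr3 stood above Cxcr4 in every one of the 13 libraries. In the 12 with Cxcr4 reads the ratio ran from 2.11 to 35.5, with a median of 17.4. In the library without Cxcr4 reads Ackr3 was at least 76.6-fold higher, set against 3 reads. The ratio was lowest in the female dorsal libraries of pools 2 and 3, at 2.11 and 3.85, while that of pool 1 was at 19.7. Ackr3 exceeded its ligand Cxcl12 per kilobase in 5 of 13 libraries.

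Ccl9 and Ccl6 had the highest ratios of ventral over dorsal means of the 10 genes over both sexes, 8.70 and 3.0. Both lie on the minus strand of chromosome 11, Ccl9 at 83572919 to 83578636 and Ccl6 at 83587882 to 83593087, with 9246 bases between them. The 100 bases before the start of each are shown because both of these neighbours had higher ventral means, as RefSeq promoters on GRCm38.p6, with the letters TATAAA and the NF-kB motif, on either strand, in capitals.
Ccl9, chr11:83578637-83578736, minus strand: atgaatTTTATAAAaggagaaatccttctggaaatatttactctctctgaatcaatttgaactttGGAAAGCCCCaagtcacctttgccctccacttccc
Ccl6, chr11:83593088-83593187, minus strand: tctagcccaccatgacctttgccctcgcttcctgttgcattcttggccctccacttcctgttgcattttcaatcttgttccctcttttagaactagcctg
TATAAA occurs in the stretch of Ccl9, on both strands in an overlap, and so does 1 match to the NF-kB motif. Neither occurs in that of Ccl6. Of 32851 promoters of full length in the same table, 5.56% hold TATAAA on either strand and 3.0% the NF-kB motif in these 100 bases. Promoters were matched for 7 members and not for Ccl2, Ccl7 and Cxcl16.

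Ccl9, which attracts cells bearing Ccr1, was higher in every ventral library than in any dorsal library, across both sexes. The female ventral libraries of pools 1, 2 and 3 held 2.27, 2.57 and 25.8 CPM, and the dorsal libraries of the same pools held 0.162, 0.681 and 1.02. Male ventral libraries of pools 4 to 7 held 4.73, 3.59, 12.3 and 12.7, and the dorsal ones of pools 4 to 6 held 0.833, 1.82 and 1.78. The lowest ventral library, at 2.27, stayed above the highest dorsal one, at 1.82. Mean ± SD was 10.2 ± 13.5 against 0.622 ± 0.434 in females and 8.33 ± 4.84 against 1.48 ± 0.559 in males. On the log2 scale females differed by 2.10 (SE 0.71) and males by 1.77 (SE 0.45), and the fit of all 13 libraries gave 1.93 (SE 0.45). The female ratio of means was 16.4, and 3.89 without the ventral library of pool 3, which alone held 439 of the 552 female reads. The male ratio was 5.63. The female dorsal values rest on only 3, 12 and 20 reads.

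Ccl6 had the same direction at a smaller ratio. Its level in females was 2.06, 4.66 and 13 CPM in ventral pools 1, 2 and 3 and 0.993, 1.99 and 3.07 in dorsal pools 1, 2 and 3. The male level was 2.94, 2.95, 6.44 and 10.7 in ventral pools 4 to 7 and 1.43, 1.70 and 3.06 in dorsal pools 4 to 6. The ventral library was the higher one in all 6 pools that have both faces, but the groups overlapped in both sexes. The ratio of means was 3.26 in females and 2.79 in males. Without the ventral library of pool 3 it was 1.67 in females. The log2 change was 1.11 (SE 0.53) in females and 1.02 (SE 0.44) in males. An antisense transcript, E230016K23Rik, spans all of Ccl6 in the annotation, and whether reads were counted by strand is not given in the sources used here. Of 1733 60-base stretches of Ccl6 transcript, 0 also lie in another annotated transcript on either strand.

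Macrophage markers moved with Ccl9 and Ccl6 between the faces, though not library by library. Of 10 markers, 7 were higher in female ventral libraries, 0 in male ones and 9 over both sexes by limma, and none was lower. Their summed level was 272 to 978 in female ventral libraries, 113 to 214 in female dorsal, 354 to 895 in male ventral and 155 to 349 in male dorsal, and no marker was at 0 reads throughout a group. The male ventral library of pool 4, at 354, held 4.73 CPM of Ccl9, and the male dorsal one of pool 6, at 349, held 1.78. The library of unsettled region, at 355, held 0.869 CPM of Ccl6, the lowest of the 14. The female ventral library of pool 3, highest for Ccl9 and Ccl6, was also highest of the 14 for the macrophage markers, at 978. It also led for the 3 neutrophil markers analysed here (S100a8, S100a9 and Mpo), at 205, against 31.4 and 4.81 in the other female ventral libraries, 1.87 to 17.5 in female dorsal, 2.81 to 9.68 in male ventral and 3.77 to 4.94 in male dorsal libraries, the last without Mpo reads. None of the 3 neutrophil markers passed the test between the faces or the sexes by limma. The part of these cells in the values of Ccl9 and Ccl6 was not tested.

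**Figure D2:**
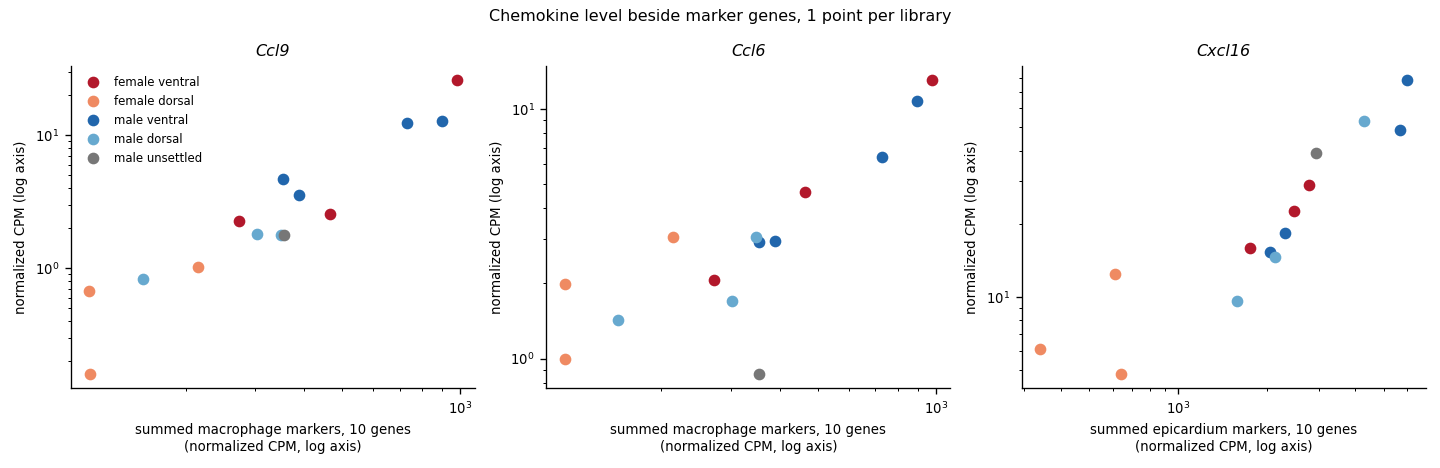
Ccl9 and Ccl6 against the summed level of 10 macrophage markers, and Cxcl16 against that of 10 epicardium markers, in normalized CPM on log axes with 1 point per library, coloured by group. The female ventral library of pool 3 lies at the upper right for Ccl9 and Ccl6, with 978 CPM of macrophage markers, and the male ventral library of pool 7 at the upper right for Cxcl16.

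Ccl2 and Ccl7, neighbours 8259 bases apart on the plus strand of chromosome 11 (Ccl2 at 82035571 to 82037453, Ccl7 at 82045712 to 82047525), are ligands of Ccr2 on monocytes. For Ccl2, ventral female pools 1, 2 and 3 gave 7.80, 3.36 and 11.2 CPM and dorsal ones 4.73, 1.17 and 3.72. Ventral male pools 4 to 7 gave 13.2, 10.5, 4.77 and 7.29 and dorsal pools 4 to 6 gave 7.70, 2.36 and 4.53. The ventral library was higher in each of the 6 pools with both faces, and the groups overlapped in each sex. Mean ± SD was 7.45 ± 3.92 against 3.21 ± 1.84 in females and 8.95 ± 3.69 against 4.86 ± 2.69 in males, with log2 changes of 1.0 (SE 0.47) and 0.79 (SE 0.42). A gene model on the opposite strand, Gm17268, spans Ccl2.

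Ccl7 had 1 library near the limit of detection. The female ventral libraries of pools 1, 2 and 3 held 3.05, 1.12 and 3.67 CPM, and the dorsal libraries of the same pools held 2.89, 0.245 and 2.17. Male ventral libraries of pools 4 to 7 held 5.09, 7.92, 1.86 and 9.97, and the dorsal ones of pools 4 to 6 held 3.77, 2.44 and 1.16. Here too the ventral library was higher in 6 of 6 pools. The difference was smallest in pool 1, and the female dorsal library of pool 2 held only 4 reads. The log2 change was 0.46 (SE 0.49) in females and 0.97 (SE 0.49) in males. Without the female dorsal library of pool 2 the female one was -0.04, with a ratio of means of 1.03 instead of 1.48. Of all pairs among the 10 genes, Ccl2 and Ccl7 had the most alike pattern over the 14 libraries, with a root mean square difference of 0.50 on the centred log2 scale. Both were highest in male ventral libraries, Ccl2 in that of pool 4 and Ccl7 in that of pool 7.

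Cxcl16 (chromosome 11, 70453983 to 70459984, minus strand), a membrane-anchored ligand of Cxcr6, separated the faces in females. Its level in females was 15.9, 29 and 22.6 CPM in ventral pools 1, 2 and 3 and 6.12, 4.82 and 12.5 in dorsal pools 1, 2 and 3. The male level was 18.4, 15.4, 48.6 and 78.1 in ventral pools 4 to 7 and 9.63, 14.7 and 52.9 in dorsal pools 4 to 6. Every female ventral library was above every female dorsal one, and the mean was 2.89 times as high. In males the groups overlapped widely, with the dorsal library of pool 6 above the ventral one of its own pool. The male ratio was 1.56, and 3.30 without that dorsal library. The log2 change was 1.48 (SE 0.35) in females and 0.68 (SE 0.64) in males. Of its 60-base stretches of transcript, 16.3% also lie in Zmynd15, which overlaps it on the opposite strand for 552 bases. The mean of Zmynd15 was between 0.428 and 1.45 CPM in the 4 groups.

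Epicardium markers moved with Cxcl16. The 3 libraries with the most Cxcl16, the male ventral ones of pools 6 and 7 and the male dorsal one of pool 6, were also the 3 highest for the summed epicardium markers, at 5661, 5999 and 4291. The same 3 libraries also held the most Ackr3. No epicardium marker was at 0 reads throughout a group. The part of epicardial cells in the levels of Cxcl16 and Ackr3 was not tested.

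Cx3cl1 (chromosome 8, 94772009 to 94782427, plus strand), the membrane-bound ligand of Cx3cr1, was the one ligand with a higher mean in dorsal libraries of both sexes. Ventral female pools 1, 2 and 3 gave 4.88, 3.15 and 2.84 CPM and dorsal ones 3.30, 7.76 and 7.36. Ventral male pools 4 to 7 gave 1.10, 7.11, 7.32 and 1.55 and dorsal pools 4 to 6 gave 4.30, 6.13 and 5.38. The groups overlapped, and the ventral library was the higher one in 3 of 6 pools. Its mean was 1.70 times as high in dorsal libraries in females and 1.23 times in males. That direction was lost in males without the ventral library of pool 4, where the ratio of ventral over dorsal was 1.01. The log2 change of ventral over dorsal was -0.58 (SE 0.36) in females and -0.51 (SE 0.52) in males.

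Cxcl14 (chromosome 13, 56288643 to 56296551, minus strand), a chemokine found in many resting epithelia, was at 0 reads in all 3 female dorsal libraries. The female ventral libraries held 12, 6 and 12 reads, or 0.652, 0.470 and 0.733 CPM, at least 3.52-fold higher as a mean than the 0.176 CPM that 3 reads per dorsal library would give. The male ventral libraries held 1.41, 0.982, 2.41 and 1.17 CPM and the male dorsal ones 0.233, 2.11 and 1.16. The male groups overlapped, and the ratio of means, 1.28, was 0.912 without the dorsal library of pool 4 and 2.14 without that of pool 5.

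**Figure D3:**
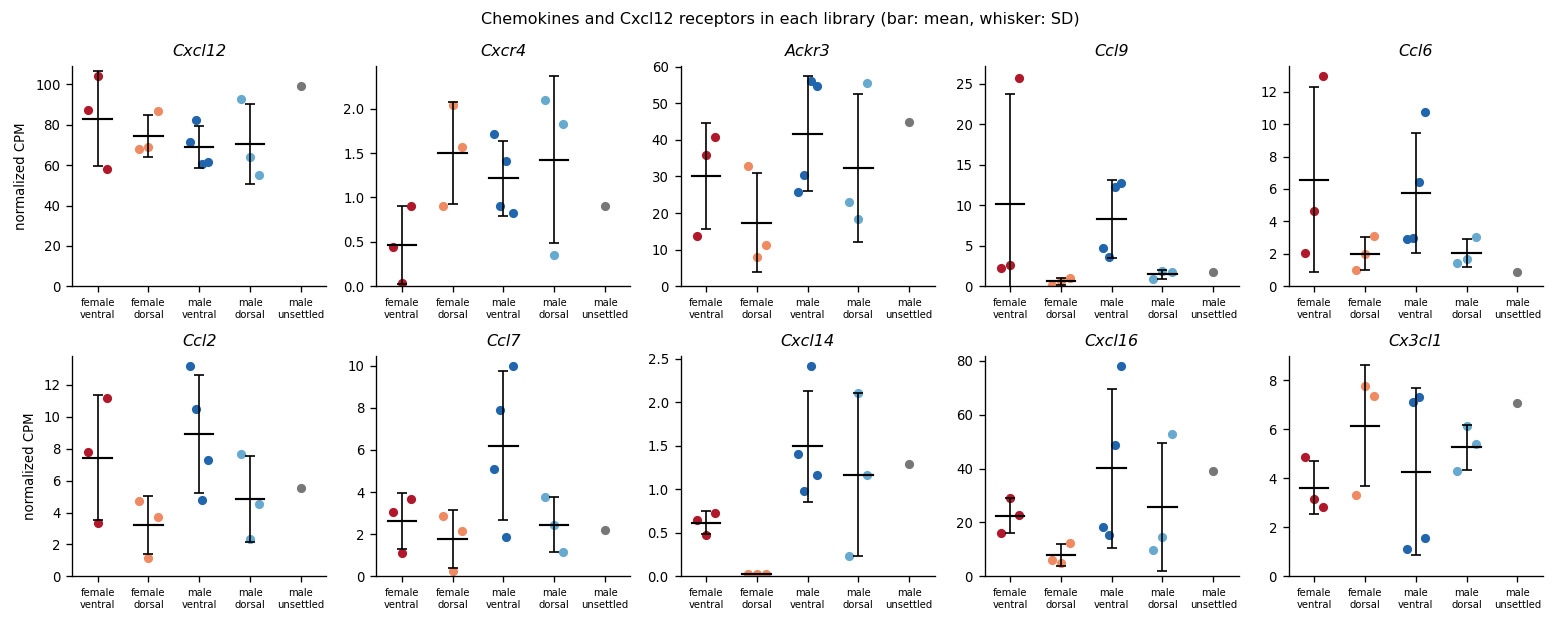
Normalized CPM of the 10 genes in the 14 libraries, with 1 panel per gene, 1 point per library, a bar at the group mean and a whisker of 1 SD. Ccl9 has every ventral point above every dorsal point, and Cxcl12 lies between 54.9 and 104 CPM in the 13 libraries of settled region.

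Set side by side over the regional comparisons, which share no library between the sexes, the ligands Ccl9, Ccl6, Ccl2, Ccl7, Cxcl14 and Cxcl16 and the receptor Ackr3 had higher means in ventral libraries of both sexes. In females 8 of the 10 genes passed the filter on low values (at least 1 CPM in 3 libraries), with Cxcl14 and Cxcr4 below it. Of these 8, 1 (Cxcl16, a call lost without ventral pool 2) was past an adjusted p of 0.05 by limma, where 27.8% of the 14411 genes tested were, and 2 (Ccl9 and Cxcl16) had groups that did not overlap, where the groups of 44.8% of all genes did not. In males 0 of 10 were called, against 0.0% of 14917 genes, with 2 of the 10 and 2083 of all genes at an unadjusted p under 0.05 and 0 of all genes called by edgeR. Groups did not overlap for 1 of the 10 (Ccl9) in males, where 14% of all did not.

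Over both sexes 1 of the 10 (Ccl9) was called by limma, where 18.9% of 15772 genes were, and it was also the 1 member whose 7 ventral and 6 dorsal libraries did not overlap, as held for 3.39% of all genes. With the pool as a replicate block, 4 of 8 members were called in females (Ccl2, Ccl6, Ccl9 and Cxcl16), where 29.6% of all genes were, and 3 of 10 over both sexes (Ccl2, Ccl6 and Ccl9), where 14.2% were. The members had a median log2 change of 0.93 (females), 0.57 (males) and 0.69 (both sexes together), beside 0.01, 0.03 and 0.03 over all genes tested. Since the members were chosen on this contrast, nothing is read from these counts.

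**Figure D4:**
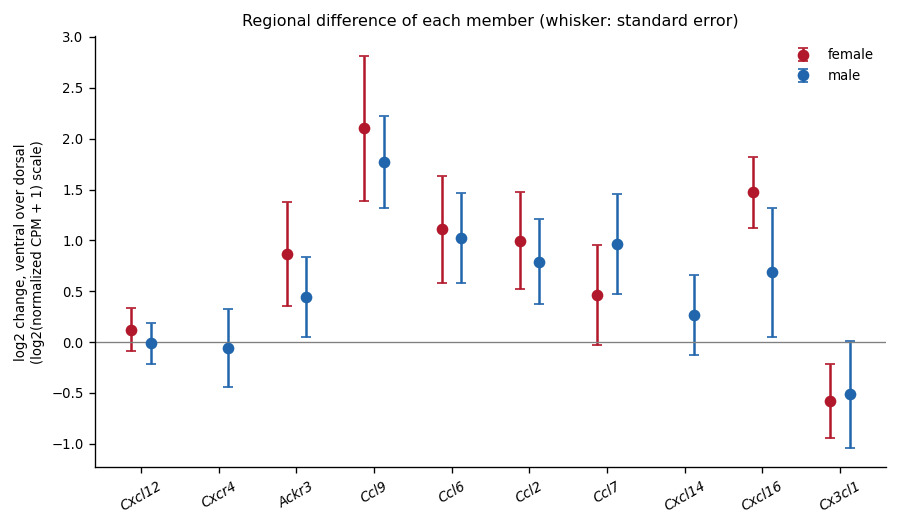
Log2 change of ventral over dorsal libraries for each gene, on log2(normalized CPM + 1), in females (red) and males (blue), with whiskers of 1 standard error. Ccl9 stands highest in both sexes at 2.10 and 1.77, Cxcl12 lies near 0, and Cxcl14 and Cxcr4 have no female point because they were below the filter.

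The regional changes of the 2 sexes are set against each other here as a description only, since the members were chosen on regional values. Male minus female, the log2 estimate for Cxcl16 was -0.79 with a 95% interval of -2.58 to 1.0, and that for Ccl9 was -0.33 (-2.29 to 1.63). For Cxcl12 it was -0.13 (-0.80 to 0.53).

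Between the sexes, with region in the fit, Cxcl14 was the 1 member called, and it was higher in males. Males held 216 reads in 7 libraries and females 30 in 6, for means of 1.35 ± 0.726 and 0.322 ± 0.336 CPM. The ratio of means was 4.21, and the change on log2(CPM + 1), which understates that of a gene near 1 CPM, was log2 0.78, SE 0.23, 95% interval 0.28 to 1.27, limma adjusted p = 0.0444, where 10.9% of 15772 genes were called. Of 7 male libraries, 6 were above every female one, and the exception was the dorsal library of pool 4 at 0.233 CPM. Against 3 reads per library in female dorsal tissue, male dorsal tissue was at least 6.66-fold higher, or at least 3.97-fold without the dorsal library of pool 5. The male dorsal library of pool 4 held only 3 reads. Within ventral libraries alone the log2 change was 0.59 (limma adjusted p = 0.280) and within dorsal ones 0.98 (limma adjusted p = 0.116). The call was kept in 9 of 25 other settings, over which the limma or edgeR adjusted p ran from 0.0226 to 0.280, and the direction was the same in all 25, with a log2 change of 0.59 to 2.88 (the highest by edgeR, without the offset of 1). It was lost without any 1 of 11 of the 13 libraries (limma adjusted p = 0.0532 to 0.0890), all but the male ventral library of pool 5 and the male dorsal library of pool 4. The main fit counted the ventral and dorsal library of a pool as independent. With the pool as a block the limma adjusted p was 0.0465.

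The other 9 members were not past the threshold between the sexes. Cxcl16 was 2.24 times as high in males as a mean (log2 0.91, SE 0.42, 95% interval 0.02 to 1.81, limma adjusted p = 0.184), and Ackr3 1.59 times (log2 0.71, SE 0.36, 95% interval -0.04 to 1.47, limma adjusted p = 0.221). Ccl7 had a male mean 2.10 times the female one (log2 0.67, SE 0.37, 95% interval -0.11 to 1.45, limma adjusted p = 0.269). For Cxcl12 the estimate was log2 -0.17, SE 0.15, 95% interval -0.50 to 0.15, limma adjusted p = 0.520. For Cxcr4 it was log2 0.28, SE 0.26, 95% interval -0.28 to 0.84, limma adjusted p = 0.549. The remaining 4 estimates, for Ccl2, Ccl6, Ccl9 and Cx3cl1, lay between -0.09 and 0.45, with standard errors of 0.33 to 0.45. Of 10 epicardium markers 5 were higher in males and 0 lower by limma. Their part in the sex values of Cxcl14, Cxcl16 and Ackr3 was not tested.

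Other chemokines and receptors were taken from a list of 56 symbols outside the members, of which 23 were analysed here, under 24 identifiers because Ccl21a has 2. In females 18 identifiers passed the filter, and 7 were higher in ventral and 1 in dorsal libraries by limma, where 27.8% of all genes were called. The median log2 change of the 18 was 0.61. In males 0 of 20 were called, with 3 at an unadjusted p under 0.05, and over both sexes 4 of 24 were higher in ventral and 1 in dorsal libraries. The share of all genes called over both sexes was 18.9%. This list too was drawn with earlier results known, so the p-values between the faces given for its genes are a description.

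Pf4, a platelet chemokine also made by macrophages, stood high. The female ventral libraries held 68.1, 114 and 161 CPM and the dorsal ones 14.7, 15.7 and 55.2 (log2 2.15, SE 0.47, limma adjusted p = 0.00889). Male ventral libraries held 89.4, 101, 135 and 167 and male dorsal ones 42, 96.8 and 78. Over both sexes the change was log2 1.43, SE 0.35, limma adjusted p = 0.0143. Of 4 platelet markers, Pf4 was the 1 called in females.

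Ccl24, a ligand of Ccr3, was higher in ventral libraries over both sexes (log2 1.49, SE 0.36, limma adjusted p = 0.0142), with 3.94, 7.12 and 11.5 against 0.901, 0.136 and 4.32 CPM in female libraries and 11.2, 5.55, 11.6 and 11.7 against 1.97, 5.72 and 3.86 in male ones. Ccl12, a mouse ligand of Ccr2, was higher in female ventral libraries (log2 1.26, SE 0.35, limma adjusted p = 0.0268). So was Ackr4, a scavenging receptor for Ccl19 and Ccl21 (log2 1.38, SE 0.39, limma adjusted p = 0.0265). Gpr182, an atypical chemokine receptor of endothelial cells, was the 1 of the list called as higher in dorsal libraries. Female dorsal libraries held 22.1, 16.9 and 19.8 CPM against 13.4, 12.3 and 6.36 in ventral ones. Male dorsal libraries held 28.2, 25.7 and 24.8 CPM against 13.4, 24.3, 7.16 and 6.44 in ventral ones. Over both sexes the change was log2 -1.02, SE 0.26, limma adjusted p = 0.0179. Of 8 blood endothelium markers 0 were called in either direction between the faces by limma, within either sex or with the sexes joined. Their median log2 change of ventral over dorsal was 0.01 for females, -0.87 for males and -0.33 with the sexes joined. The summed level of these markers in females was 433 to 646 in ventral and 506 to 642 in dorsal libraries. For males it was 247 to 679 in ventral and 612 to 767 in dorsal ones. The part of endothelial cells in the values of Gpr182 was not tested.

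Of the female calls on this list, those of Pf4 and Cx3cr1 were kept without any 1 of the 6 libraries. That of Ccl24 was lost without ventral 2, ventral 3, dorsal 1 or dorsal 2, that of Ackr4 without ventral 2, ventral 3, dorsal 2 or dorsal 3, and that of Ccl12, which passed the filter in 3 of the 6 fits, without dorsal 2 or dorsal 3. The female call of Gpr182 (log2 -0.87, SE 0.29, limma adjusted p = 0.0496) was lost without any library but ventral 1. Highest adjusted p-values by limma over these fits were 0.125 for Ccl24, 0.0960 for Ackr4, 0.0770 for Ccl12 and 0.131 for Gpr182. By edgeR the calls of Ccl24 (adjusted p = 0.151 in females and 0.0528 over both sexes) and the female calls of Gpr182 (0.0603) and both Ccl21a identifiers were lost. Over both sexes the limma calls of Ccl24, Pf4 and Gpr182 were kept without any 1 of the 13 libraries, while that of Cx3cr1 was kept in 4 of 13, with an adjusted p of up to 0.0889 by limma and the losses including each female library.

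Ccl21a, a lymphatic chemokine, reached 770.3, 1317 and 44.3 CPM in female ventral and 144, 4.71 and 4.07 in female dorsal libraries, and 508, 59.8, 21.8 and 8.44 in male ventral and 213, 0.308 and 0.0237 in male dorsal libraries. Near-identical gene copies share its reads, so its level is uncertain. Over both sexes the other Ccl21a identifier was higher in ventral libraries (log2 2.59, SE 0.71, limma adjusted p = 0.0232). That call was lost without female ventral 2, female dorsal 2 or female dorsal 3 (adjusted p up to 0.0602 by limma). The identifier with the levels given here was not called over both sexes. Of 6 lymphatic endothelium markers 3 were higher in female ventral libraries and 2 over both sexes, with a summed level of 360.0 to 752 in female ventral libraries, 146 to 184 in female dorsal, 250.2 to 441 in male ventral and 194 to 317 in male dorsal. Ccl27a, which with Ccl21a and Pf4 made up the 3 highest of the list per kilobase, did not pass in any comparison and stood at 14.6 to 25.9 CPM.

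Of the receptors of the member ligands, Cx3cr1, the receptor of Cx3cl1 on macrophages and microglia, was higher in female ventral libraries, at 22.4, 18.3 and 27.5 CPM against 7.14, 7.16 and 8.36 (log2 1.46, SE 0.24, limma adjusted p = 0.00269). That is opposite in direction to the means of its ligand. Over both sexes it was log2 0.85, SE 0.27, limma adjusted p = 0.0378. Male libraries held 13.5, 28.5, 30.9 and 28.8 CPM in ventral and 11.2, 24.8 and 25.3 in dorsal tissue. Ccr1, the receptor of Ccl6 and Ccl9, had means of 6.46 ± 4.78 against 3.32 ± 2.06 in females and 5.59 ± 2.76 against 3.08 ± 1.23 in males and did not pass (log2 0.67, SE 0.32, limma adjusted p = 0.148 over both sexes). Ccr2, the receptor of Ccl2 and Ccl7, did not pass either (log2 0.91, SE 0.45, limma adjusted p = 0.159). Cxcr6 was not analysed here.

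**Figure D5:**
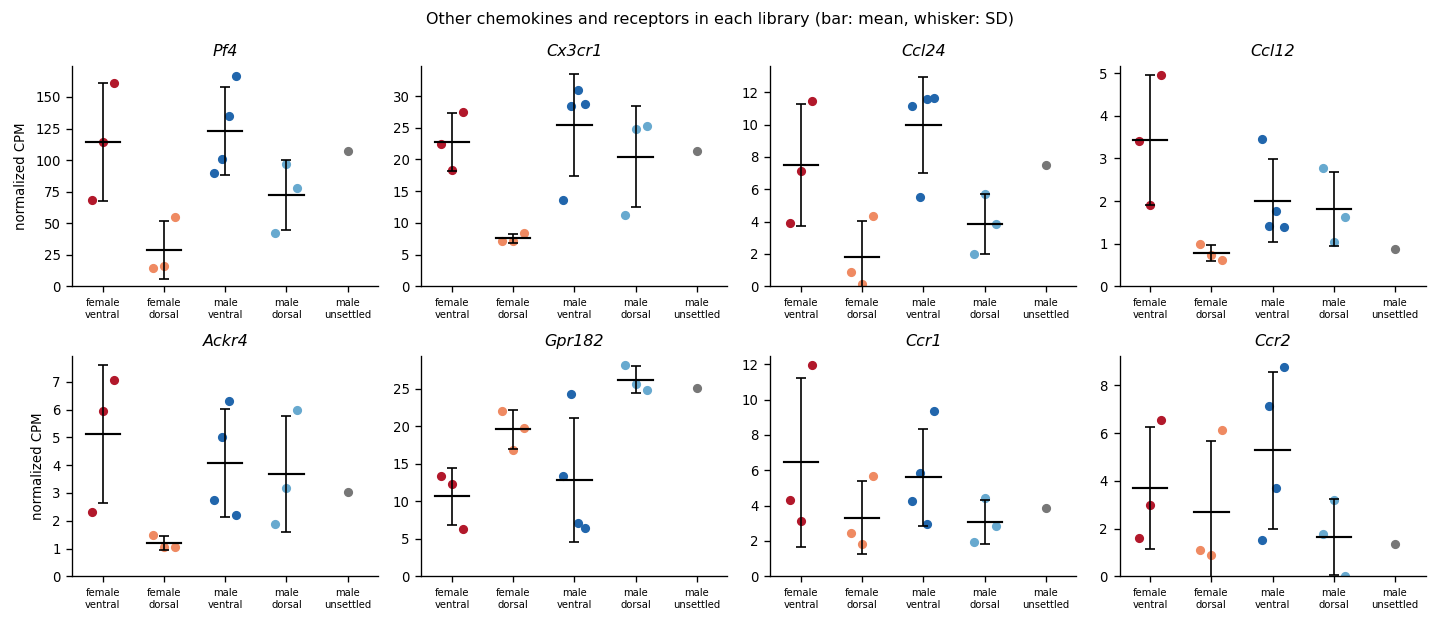
Normalized CPM of 8 other chemokines and receptors in the 14 libraries, with 1 point per library, a bar at the group mean and a whisker of 1 SD. Pf4, Cx3cr1, Ccl24, Ccl12 and Ackr4 have higher means in female ventral than female dorsal libraries, and Gpr182 a lower one, with means of 10.7 and 19.6 CPM.

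Between the sexes 0 of the 24 identifiers were called by limma, where 10.9% of all genes were, with 4 at an unadjusted p under 0.05 and 1 called by edgeR. In the fit for a regional change that differs by sex, where 2.73% of all genes were called, 0 of the list were called, with 3 at an unadjusted p under 0.05.

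Genes that process, present or relay chemokines were taken from a list of 40 symbols, of which 38 were analysed here. It was also drawn with earlier results known, and its p-values between the faces are likewise a description. In females, of 37 tested, 10 were higher in ventral and 3 in dorsal libraries, where 27.8% of all genes were called, and the median log2 change was 0.31. Dpp4, the peptidase that cuts and inactivates Cxcl12, had means of 128 ± 42.7 against 31.8 ± 14.5 CPM in females (log2 2.03, SE 0.35, limma adjusted p = 0.00356) and 183 ± 97.7 against 126 ± 68.5 in males. The cell-surface heparan sulfate carriers Sdc4 (log2 2.31, SE 0.28, limma adjusted p = 0.000813) and Sdc3 (log2 1.40, SE 0.24, limma adjusted p = 0.00334) were higher in female ventral libraries. So were the matrix carrier Hspg2 (log2 1.32, SE 0.15, limma adjusted p = 0.000687) and the heparan sulfate enzymes Ext1, Ndst1 and Hs6st1, at log2 1.63, 0.69 and 1.24. The other ventral ones were Cd74, a receptor for the cytokine Mif, Gnai2, an inhibitory G protein subunit, and Grk2, a kinase that desensitizes receptors, at 1.37, 1.14 and 0.98. The 3 dorsal ones were, at the log2 values given, the G protein subunits Gnai1 (-1.41) and Gnai3 (-0.51) and the small GTPase Rac1 (-1.35). Of these 13 calls, 9 were kept without any 1 of the 6 libraries. That of Hs6st1 was lost without ventral 2, and that of Ndst1 without ventral 2, dorsal 1 or dorsal 2. That of Cd74 was lost without ventral 2, ventral 3, dorsal 1 or dorsal 2, and that of Gnai3 without ventral 1, ventral 2, dorsal 1 or dorsal 3.

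In males 0 of 38 of these genes were called, with 3 at an unadjusted p under 0.05. Over both sexes 9 were higher in ventral libraries (Mmp14, Sdc4, Cd74, Sdc3, Hspg2, Gnai2, Dpp4, Hs6st1 and Ext1) and 0 in dorsal ones, where 18.9% of all genes were called. By edgeR the calls over both sexes of Dpp4 (adjusted p = 0.0525) and Hs6st1 (0.0672) and that of Cd74 in females (0.0646) were lost. The calls of Cd74, Sdc3, Hspg2, Gnai2 and Ext1 were kept without any 1 of the 13 libraries, those of Mmp14 and Sdc4 in 10 and 9 of these fits (lost without female ventral 2, female dorsal 2 or male dorsal 4, and for Sdc4 also without female ventral 3), and those of Dpp4 and Hs6st1 in only 4 and 3, with each female library among the losses. Between the sexes, where 10.9% of all genes were called, 2 of the list were higher in males, Mmp2, a protease that trims Cxcl12 (log2 0.70, SE 0.14, limma adjusted p = 0.00401), and the heparan sulfate carrier Sdc1 (log2 0.50, SE 0.15, limma adjusted p = 0.0396). Lower in males were 5: Rac1, Gnai1, Gnai2, Mmp14 and Hmgb1, at log2 -1.82, -1.75, -0.63, -0.87 and -0.49. For Rac1 and Gnai1 the regional change differed by sex, by log2 2.56 and 1.96 (male minus female). Their sex values are averages over the faces, and the difference was larger in dorsal than in ventral libraries. The call of Sdc1 was kept in 3 of 13 fits with 1 library left out (without female ventral 2, male ventral 4 or male dorsal 4), and that of Gnai2 in 11 (lost without female ventral 2 or 3). Fibroblast markers, 6 of 8 higher in female ventral libraries, moved with the ventral genes, at a summed level of 11843 to 22419.6 in female ventral libraries, 2988 to 4839 in female dorsal, 11134 to 25625 in male ventral and 7441 to 12715 in male dorsal, and their part was not tested.

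The genes most like each member were found as a description, by the root mean square difference of centred log2(CPM + 1) over the 14 libraries among 9581 genes with a mean of at least 10 CPM. For Ccl9 they were Hmox1 (0.38), Lyz2 (0.42) and Alox5ap (0.56), and for Ccl6 Alox5ap (0.43), Lyz2 (0.47) and Ctss (0.48). Lyz2, 1 of the 10 macrophage markers, is a lysozyme of macrophages and neutrophils, and Ctss a lysosomal protease of antigen-presenting cells. Ackr3 was most like Frzb (0.33), Ctsl (0.33) and Galns (0.34), and Cxcl16 like Car13 (0.29), Slc10a6 (0.29) and Bex2 (0.33). Ccl2 and Ccl7 shared their closest gene, with Dusp23 (0.38), Lratd1 (0.43) and Gmppb (0.50) for Ccl2 and Dusp23 (0.48), Gmppb (0.51) and Gas7 (0.53) for Ccl7. For Cxcl12 they were Ube3b (0.19), Rbm34 (0.20) and Adgre5 (0.20). The closest to the scarce Cxcr4 were Coq4 (0.22), Rmc1 (0.25) and Ikbkg (0.26), and to Cxcl14 Crtap (0.30), Naglu (0.30) and Anxa11 (0.30), a scale on which genes with few reads vary little. Cx3cl1 was most like Prcp (0.38), Ptcd3 (0.38) and Abcb10 (0.39).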

How the data were processed

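RNA-seq libraries, 14 in all, were made from dissected tissue of 7 pools of hearts. Per the labels and the study's methods, polyA libraries were made with the NEBNext Ultra kit, read as 60-base single reads, trimmed with cutadapt and quantified with RSEM (1.3.1 in the submitters' processing notes) on GRCm38. The deposited signal values are normalized CPM made by the authors from RSEM counts with limma, 1 table of 15894 genes. They hold whole reads: 100.0% came out within 0.02 of a whole number after an offset of 0.5 read. Depth ran from 13.9 to 25.2 M reads, and intervals and limits for 0 reads cover counting error only, since reads carried no molecular identifiers.

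Genes with at least 1 CPM in 3 libraries of a fit were tested on log2(CPM + 1) with limma 3.58.1 (trend, two-sided, Benjamini-Hochberg over all genes tested, called below 0.05). Region was fitted within each sex and over both with sex as a term, sex with region as a term, and the difference of regional changes as an interaction. Same-numbered ventral and dorsal libraries deviated together (correlations 0.169 to 0.427 over 15772 genes in 6 pools, each over 0.1). The numbers were taken to pair the samples, though libraries of different numbers were not correlated beside them. A fit with the pool as block was an alternative. Others were the pseudocount, filter, scaling, trend, GC and length, edgeR 4.0.16 on the recovered reads, each library left out, and the unsettled library as either face. The fit was tested on simulated data. The members and the gene lists were chosen with earlier results of these data known. Named beside the members were listed chemokine and pathway genes that were called, the 3 listed chemokine genes highest per kilobase, receptors of member ligands and the 3 genes most alike each member. Each pool is of different hearts, and p-values of the fits within 1 sex measure the spread between pools of 2 hearts. All main fits, also those within 1 sex, counted the ventral and dorsal library of a pool as independent. The p-values over both sexes, by sex and for the interaction therefore mix spread between and within pools. Exon lengths and positions are from GENCODE M21 (99.9% of genes matched).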

Additional observations from a re-analysis of the deposited data

Results flagged for a closer look

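None of the 10 members was flagged. Among the other genes named, 3 of the pathway list had a regional change that differed between the sexes in the interaction fit by limma. Rac1 differed by 2.56 (male minus female, log2, SE 0.25, limma adjusted p = 9.92e-05), and its pairs moved in opposite directions, with the dorsal library higher in 3 of 3 female pools and the ventral one in 3 of 3 male pools. Its means were 149 ± 23.6 (ventral) and 379 ± 38.7 (dorsal) CPM in females and 96.7 ± 19.2 and 40.8 ± 5.66 in males. Gnai1 differed by 1.96 (SE 0.38, limma adjusted p = 0.0109), with means of 26.6 ± 1.88 and 72.3 ± 3.48 in females and 14.6 ± 2.25 and 10.5 ± 6.19 in males. Ext1 differed by -1.29 (SE 0.31, limma adjusted p = 0.0360, kept in 3 of 13 fits with 1 library left out: without female ventral 1, male ventral 7 or male dorsal 4), with means of 60.1 ± 17.3 and 18.2 ± 2.25 in females and 32.7 ± 3.42 and 25.9 ± 5.32 in males.

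The male ventral group was the only one large enough to be looked at for a library far from the rest. In that group 1 library stood apart for 5 of the 38 gene identifiers looked at. Chance alone gives about 1 in 20 such cases if the identifiers are independent. They come from the same libraries, and those of Ccl21a share reads, so the count cannot be compared with that rate. Ccl21a was high in pool 4, at 508 CPM under one identifier and 10.8 under the other. Cx3cr1 was low in pool 4, at 13.5 CPM. In pool 5 Ccl24 was low, at 5.55 CPM, and Grk2 was low at 12.4 CPM.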

How the results depend on the processing

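Over 1045 alternative values for the 10 genes, 1022 kept their side of the threshold (sex and interaction) or moved by less than the spread between libraries (region), and 0 called values changed direction. Of the rest, 16 were the losses of the Cxcl14 call by sex, and 7 moved by more: with edgeR the regional log2 change of Ccl9 was 4.08 (females), 2.50 (males) and 3.20 (both), Cxcl14 over both was at 1.50 with a pseudocount of 0.1 and 1.85 with edgeR, and Cxcr4 over both was at -0.85 and -0.92 in these fits. Within 1 sex, leaving out 1 library cannot shift a regional change by as much as that spread, so those fits could not count as moved. Regional calls gained or lost were not counted either. The 1022 thus include the female Cxcl16 call lost without ventral pool 2. They also include the female Ccl7 change of -0.04 without dorsal pool 2. In males, where 0 genes were called, 1 was called without the trend, 1 with the GC and length trend removed, 76 with the replicate block, 43 with the replicate block and GC and length trend removed, and 0 to 12 with 1 library left out (12 without dorsal pool 6, 1 without dorsal pool 4). Over both sexes, 1776 genes instead of 2974 were called with the block and GC and length trend removed, and 1429 to 3646 with 1 library left out, the lowest without female dorsal pool 2, with 1557 without female ventral pool 2 and 1739 without female ventral pool 3. In females 2158 to 3845 instead of 4007 were called with 1 library left out, with 2158 without ventral pool 2 and 2291 without dorsal pool 2. By sex, 1129 instead of 1726 were called within dorsal libraries and 1303 to 1859 with 1 library left out. For the regional change by sex, 804 instead of 431 were called with the block and 764 with block and GC and length trend removed, and 260 to 447 with 1 library left out, with 260 without female dorsal pool 2 and 267 without female ventral pool 2. Of the chemokine list, 5 instead of 8 were called in females with genes of low level kept, with a minimum mean of 10 CPM, with quantile normalization, no trend, or GC and length removed, 4 with edgeR, and 2 to 6 with 1 library left out, with 2 without ventral or dorsal pool 2 and 4 without ventral or dorsal pool 3. By sex, 1 instead of 0 was called with edgeR, 1 within ventral and 1 within dorsal libraries, and 0 to 2 with 1 library left out, with 2 without male ventral pool 4 and 1 without female ventral pool 3 or female dorsal pool 2 or 3. On the recovered reads edgeR called 3650 genes in females, 0 in males, 2480 over both sexes, 1540 by sex and 381 for the regional change by sex. The pairing by pool changed the calls of Ccl2, Ccl6 and Ccl9 in females, of Ccl2 and Ccl6 over both sexes, and of Hs6st1 over both sexes, and lost no other call of the named genes. The cause was not tested for any of these. Depth limits Cxcr4 and Cxcl14, each at 0 reads in at least 1 library.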

Other observations

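The male library of pool 7 whose labels name both faces was in no comparison of region. It held 99.4 CPM of Cxcl12, 44.8 of Ackr3 and 0.908 of Cxcr4. Ccl9 was at 1.80 and Ccl6 at 0.869 CPM, the lowest Ccl6 value of the 14 libraries. Ccl2 was at 5.54, Ccl7 at 2.18, Cxcl14 at 1.29, Cxcl16 at 39.2 and Cx3cl1 at 7.09 CPM. Its macrophage markers summed to 355 CPM and its epicardium markers to 2939.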
